A study of Homo sapiens with 4 samples.

Results

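The FOS, JUN and EGR immediate early genes are the 4 FOS genes (FOS, FOSB, FOSL1 and FOSL2), the 3 JUN genes (JUN, JUNB and JUND) and the EGR genes EGR1, EGR2 and EGR3, which makes 10 members in all. They were chosen by name, and a member was counted as listed when its Ensembl identifier stood in the list of differentially expressed mRNAs of HepG2 or of Huh7 cells, as rebuilt from the genes named under all Gene Ontology (GO) terms. All 10 members matched an Ensembl identifier, and they were set against 22148 annotated genes. Both lines are established cell lines of human liver cancer. The 4 groups, with 1 library of total RNA each, were HepG2 cells before (A) and after (B) sonodynamic therapy (SDT) and Huh7 cells before (C) and after (D) the same treatment. SDT combined targeted nanobubbles that carried the sensitizer hematoporphyrin monomethyl ether (HMME) and the drug lonidamine (LND) with low-frequency ultrasound. No library of cells given ultrasound, empty nanobubbles or a single drug was analysed here, so the parts played by the components of SDT cannot be told apart, and the time between SDT and the isolation of RNA is not given in the sources used here.

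Immediate early genes are transcribed within minutes of a stimulus, without the need for newly made proteins, and most of them are switched off again soon afterwards. FOS and JUN proteins carry a basic leucine zipper and bind DNA in pairs as activator protein 1 (AP-1): JUN proteins pair with each other or with a FOS protein, whereas FOS proteins need a partner. EGR proteins bind GC-rich DNA through zinc fingers. Growth factors, calcium, oxidants and ultraviolet light are known to induce these genes through kinase cascades that act on factors already bound to their promoters, and in the liver several of them are known to rise early after partial hepatectomy.

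The comparison of B with A addressed the mRNAs that differed after SDT in HepG2 cells, and D with C did so in Huh7 cells. Listed means called differentially expressed by the authors at an adjusted p-value under 0.05, and the tables hold neither the level of an mRNA nor the direction of its difference. With 1 library per group no call has a replicate check and no test over samples could be made. The paper's text gives a total of clean reads, but the depth of each library is unknown here. A member that was not listed may thus have differed by an amount that was not detectable.

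In HepG2 cells 8 of the 10 members were listed (80%), beside 21.6% of all annotated genes. In Huh7 cells 9 of the 10 were listed (90%), beside 19.7% of all annotated genes. The same 8 members, FOS, FOSB, FOSL1, JUN, JUNB, JUND, EGR1 and EGR3, were listed in both cell lines. A call in both lines was found for 2281 of the annotated genes (10.3%). EGR2 was listed in Huh7 cells only, as were 2088 annotated genes (9.43%), and FOSL2 was listed in neither line, as were 15277 (69%). No member was listed in HepG2 cells only, whereas 2502 annotated genes (11.3%) were.

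**Figure D1:**
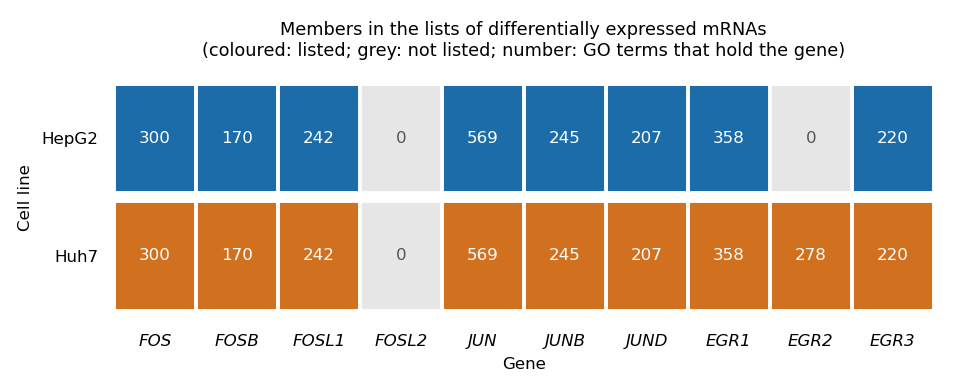
Calls of the 10 members (columns) in HepG2 cells (upper row) and Huh7 cells (lower row), where a coloured cell is a listed gene, a grey cell is a gene that was not listed, and the number is the count of GO terms that hold the gene. The 8 members listed in both lines are coloured in both rows, EGR2 is coloured in the Huh7 row alone and FOSL2 is grey in both.

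The 250 bases before the transcription start are shown for 5 members, to set FOS, JUND and EGR1, listed in both lines, beside EGR2, listed in Huh7 cells only, and FOSL2, listed in neither. They are RefSeq sequences of build GRCh38.p14, written 5′ to 3′ along the gene, at chr14:75278578-75278827 (FOS, plus strand), chr19:18281623-18281872 (JUND, minus strand), chr5:138465229-138465478 (EGR1, plus strand), chr10:62816367-62816616 (the first of the 3 EGR2 starts in the table, minus strand) and chr2:28392608-28392857 (FOSL2, plus strand). Capitals mark matches on either strand to one of 6 motifs, which were the serum response element core (CArG box), the cyclic AMP response element (CRE, TGACGTCA), a short CRE (TGACGT, part of every CRE match and added after the promoters had been seen), the AP-1 site (TGANTCA), the EGR site (GCGNGGGCG) and the TATA box (TATAAA).
FOS: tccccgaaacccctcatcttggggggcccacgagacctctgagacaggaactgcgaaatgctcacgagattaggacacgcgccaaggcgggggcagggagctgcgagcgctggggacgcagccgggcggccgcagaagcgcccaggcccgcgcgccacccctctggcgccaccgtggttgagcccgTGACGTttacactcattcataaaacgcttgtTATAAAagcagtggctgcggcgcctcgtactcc
JUND: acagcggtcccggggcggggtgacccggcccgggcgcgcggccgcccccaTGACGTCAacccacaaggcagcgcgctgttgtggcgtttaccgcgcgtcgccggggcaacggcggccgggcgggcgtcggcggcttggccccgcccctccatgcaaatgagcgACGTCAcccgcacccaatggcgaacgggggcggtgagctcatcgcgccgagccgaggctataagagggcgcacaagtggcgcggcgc
EGR1: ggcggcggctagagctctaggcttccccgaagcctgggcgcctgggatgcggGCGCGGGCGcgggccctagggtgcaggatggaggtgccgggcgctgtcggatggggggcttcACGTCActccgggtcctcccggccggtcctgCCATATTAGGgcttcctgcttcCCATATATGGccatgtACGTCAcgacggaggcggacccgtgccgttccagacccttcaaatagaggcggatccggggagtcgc
EGR2: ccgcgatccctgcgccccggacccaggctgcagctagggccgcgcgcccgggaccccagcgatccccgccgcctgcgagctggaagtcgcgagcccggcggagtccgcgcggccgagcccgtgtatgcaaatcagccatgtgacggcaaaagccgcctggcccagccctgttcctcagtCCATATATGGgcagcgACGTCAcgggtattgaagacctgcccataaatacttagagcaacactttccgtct
FOSL2: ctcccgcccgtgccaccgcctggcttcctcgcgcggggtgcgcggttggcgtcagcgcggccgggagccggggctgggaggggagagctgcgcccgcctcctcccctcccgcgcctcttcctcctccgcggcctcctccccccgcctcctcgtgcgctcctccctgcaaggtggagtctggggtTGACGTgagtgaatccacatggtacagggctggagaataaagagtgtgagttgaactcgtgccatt

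In the FOS window the capitals are a short CRE that starts 64 bases before the transcription start and a TATA box that starts 33 bases before it. In the EGR1 window they are an EGR site 198 bases before the start, short CREs at 136 and 67 bases, and CArG boxes at 105 and 83 bases. The first EGR2 window holds a CArG box that starts 71 bases before the start and a short CRE at 55 bases. The JUND window holds a whole CRE that starts 200 bases before the start, with a further short CRE nearer to the gene, and the FOSL2 window holds a single short CRE at 66 bases. The short CRE was thus found before listed genes and before the unlisted FOSL2. Within these windows, the CArG box was found for EGR1 and EGR2 alone. Bases farther before the start were not searched, so whether FOS, JUND or FOSL2 has a CArG box there was not tested.

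Of the members not printed, FOSB had a short CRE at 60 bases and a TATA box at 30 bases before the start, JUNB had a TATA box at 31 bases, and the JUN window and the other two EGR2 windows held no match. Among 21021 such windows of 14896 protein-coding genes, 1.19% held a CArG box, 1.99% a CRE, 8.02% a short CRE, 5.38% an AP-1 site, 11% an EGR site and 8.79% a TATA box. No window of a member held an AP-1 site. A match is a stretch of letters, not a bound site, and a window without one says nothing about the factor. Windows were found for 8 of the 10 members. No comparison of motifs between listed and unlisted genes is drawn here, since many genes had no window. Windows were found for 72.1% of the genes listed in both lines, 75.1% of those listed in neither and 74.7% of all protein-coding genes.

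**Figure D2:**
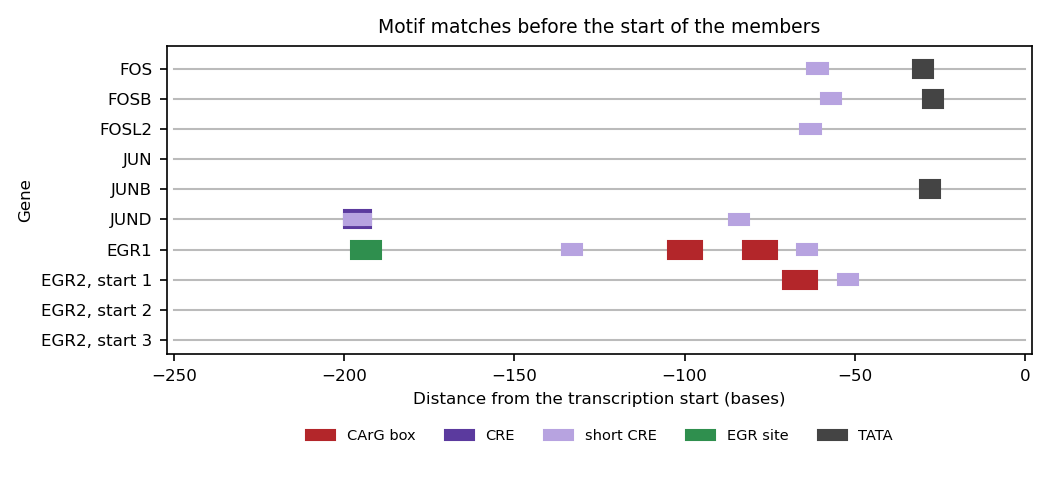
Motif matches in the 250 bases before the transcription start of 8 members, with EGR2 at each of its 3 starts. The horizontal axis is the distance from the start in bases, each line is a window and each block a match. A short CRE lies between 67 and 50 bases before the start in FOS, FOSB, FOSL2, EGR1 and the first EGR2 window. This motif was added after the promoters had been seen, and the range was read from its matches. The JUND matches lie farther from the start, and the JUN and JUNB windows hold none.

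FOS and its relatives supply the partner that JUN proteins join to form the more stable AP-1 pairs. FOS (ENSG00000170345) lies on chromosome 14 and its longest GENCODE 29 transcript has 2158 bases in 4 exons. FOSB (ENSG00000125740), on chromosome 19, is known for a stable short form in neurons after repeated stimulation, and its longest transcript has 3775 bases. FOSL1 (ENSG00000175592), which encodes FRA-1 and lies on chromosome 11, is a FOS protein without the strong activation domain of FOS. Its longest transcript has 1669 bases. These 3 genes were listed in both lines, as were 10.3% of all annotated genes. FOSL2 (ENSG00000075426), which encodes FRA-2, lies on chromosome 2 and stood in none of the 4 tables, neither under a GO term nor in a KEGG pathway. The tables name listed genes only, so a gene that was tested and not called cannot be told apart from one that was not tested. Its longest transcript, of 6708 bases, is the longest of the members.

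JUN proteins can form AP-1 alone, and JUN itself is a target of the JUN N-terminal kinases. JUN (ENSG00000177606), JUNB (ENSG00000171223) and JUND (ENSG00000130522) each consist of 1 exon, with longest transcripts of 3540, 1820 and 1863 bases. All 3 were listed in both lines, as were 10.3% of all annotated genes. JUN lies on chromosome 1, and the other two on chromosome 19, as does FOSB. JUNB is known to restrain JUN in growth control, and JUND is known as the JUN protein already present in resting cells.

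EGR1 (ENSG00000120738), a zinc finger factor induced by serum, injury and oxidants, and EGR3 (ENSG00000179388), known from muscle spindles and T cells, were listed in both lines. EGR2 (ENSG00000122877), known from hindbrain patterning and myelination, was listed in Huh7 cells only. Longest transcripts had 3138 bases for EGR1, 2968 for EGR2 and 4336 for EGR3, each in 2 exons. Of the 3 EGR genes HepG2 cells thus had 2 listed and Huh7 cells all 3, and of the 4 FOS genes each line had 3. Of all annotated genes 21.6% and 19.7% were listed, and families of 3 or 4 genes are too small to compare. Whether EGR2 differed between the lines in its response was not tested, since each line gives 1 yes or no call.

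A call by read number depends on transcript length, and the members were spread over the lengths of all protein-coding genes. When 19951 protein-coding genes were split by their longest transcript into 5 classes of near equal size, 18.5% of the shortest class were listed in HepG2 cells, and between 24.3% and 26.5% of the other classes. In Huh7 cells the shares were 17.4% and between 22.8% and 23.4%. From the shortest to the longest class the numbers of members were 1, 3, 3, 2 and 1, with FOSL1 in the shortest and FOSL2 in the longest. The longest class had 26.5% of its genes listed in HepG2 cells, the highest of the 5 shares, against 22.8% in Huh7 cells.

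The sequence that the members share with other annotated transcripts was counted. Every stretch of 75 bases in the transcripts of the 10 members was found in no transcript of another gene (100% for each). At 50 bases, 97.1% of the stretches of FOSL1 were its own, and the rest were shared with FOSL1P1, its pseudogene copy. For FOSB the share was 99.9%, and no stretch was shared between 2 members. The read length and the counting of reads that matched several places are not given in the sources used here, and the part of shared reads in the calls was not tested.

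The GO annotation of the members shows how the deposited tables describe them. JUN stood under 569 terms, EGR1 under 358, FOS under 300, EGR2 under 278, JUNB under 245, FOSL1 under 242, EGR3 under 220, JUND under 207 and FOSB under 170. The median over the listed genes was 87 in either line. In HepG2 cells only 32 listed genes (0.669%) had as many terms as JUN, and in Huh7 cells only 24 (0.549%). These counts describe how much has been annotated for a gene and are the same in both lines, apart from EGR2. At least 1 member stood under 856 of the 14390 GO terms for HepG2 cells and under 932 of the 13760 for Huh7 cells.

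The smallest term that held all listed members was RNA polymerase II regulatory region sequence-specific DNA binding, with 768 background genes. Of these, 211 (27.5%) were listed in HepG2 cells against 193 (25.1%) in Huh7 cells, with the listed members counted in. The term was picked because it holds them, so it is no independent set to compare the members with. The AP1 complex, a term of 5 background genes, had all 5 listed in both lines, beside 10.3% of all annotated genes. They were FOS, JUN, JUNB, JUND and DDIT3, the last chosen for mention after its call had been seen. As 4 of the 5 are members and the term was picked for them, its share restates their calls. DDIT3 encodes CHOP, a leucine zipper factor of the stress response that is no member here.

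Several of the fixed terms name a stimulus. Response to cAMP, the second messenger that acts through the CRE, held 6 members (FOS, FOSB, FOSL1, JUN, JUNB and JUND) among 44 listed of 100 genes in HepG2 cells and the same 6 among 30 in Huh7 cells. Without these 6 listed members 40.4% and 25.5% of the term's genes were listed. Response to mechanical stimulus held the same 6 members, with 84 of 211 genes listed in HepG2 cells (39.8%) against 73 in Huh7 cells (34.6%). Without them the shares were 38% and 32.7%. Both terms lay above the share of all annotated genes when the listed members were left out, and no test was made.

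Response to reactive oxygen species, which a sensitizer is known to form under ultrasound, held FOS, FOSL1 and JUN in both lines. In HepG2 cells 69 of its 224 genes were listed (30.8%) and in Huh7 cells 55 (24.6%). Response to hydrogen peroxide held FOSL1 and JUN, with 44 of 143 genes listed in HepG2 cells (30.8%) against 36 in Huh7 cells (25.2%). Without the listed members the shares were 29.9% and 23.5% for reactive oxygen species, and 29.8% and 24.1% for hydrogen peroxide. Of all annotated genes 21.6% and 19.7% were listed, and no test was made.

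Cellular response to calcium ion held FOS, FOSB, JUN, JUNB and JUND, with 27 of 84 genes listed in HepG2 cells (32.1%) against 28 in Huh7 cells (33.3%). SMAD protein signal transduction, the pathway of transforming growth factor beta, held FOS and JUN, with 21 of 59 genes listed in HepG2 cells (35.6%) against 22 in Huh7 cells (37.3%). Skeletal muscle cell differentiation held FOS and EGR1, and in Huh7 cells EGR2 too, with 43 of 142 genes listed in HepG2 cells (30.3%) against 49 in Huh7 cells (34.5%). Without the listed members the shares were 27.8% and 29.1% for calcium, 33.3% and 35.1% for SMAD, and 29.3% and 33.1% for muscle. Of all annotated genes 21.6% and 19.7% were listed, and no test was made.

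Among the other terms with the most members, response to organophosphorus (137 genes) had 42.3% listed in HepG2 cells against 30.7% in Huh7 cells, and response to purine-containing compound (153 genes) had 40.5% and 30.1%. They held the same 6 members as response to cAMP. Response to calcium ion (152 genes) had 33.6% and 34.9% listed, and cellular response to metal ion (189 genes) 30.7% and 28.6%, each with FOS, FOSB and the 3 JUN genes. The steroid terms held FOS, FOSB and FOSL1. Response to corticosterone stimulus (23 genes) had 47.8% and 39.1% listed, and response to mineralocorticoid stimulus (30 genes) 46.7% and 40%. Without these members the shares were 40% and 30% for corticosterone and 40.7% and 33.3% for mineralocorticoid. All terms of this paragraph were picked for the number of listed members they hold, which raises their shares. Double-stranded DNA binding (169 genes), with FOS, FOSB, JUN, JUND and EGR1, was the term nearest to all genes, with 24.9% and 18.3%.

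**Figure D3:**
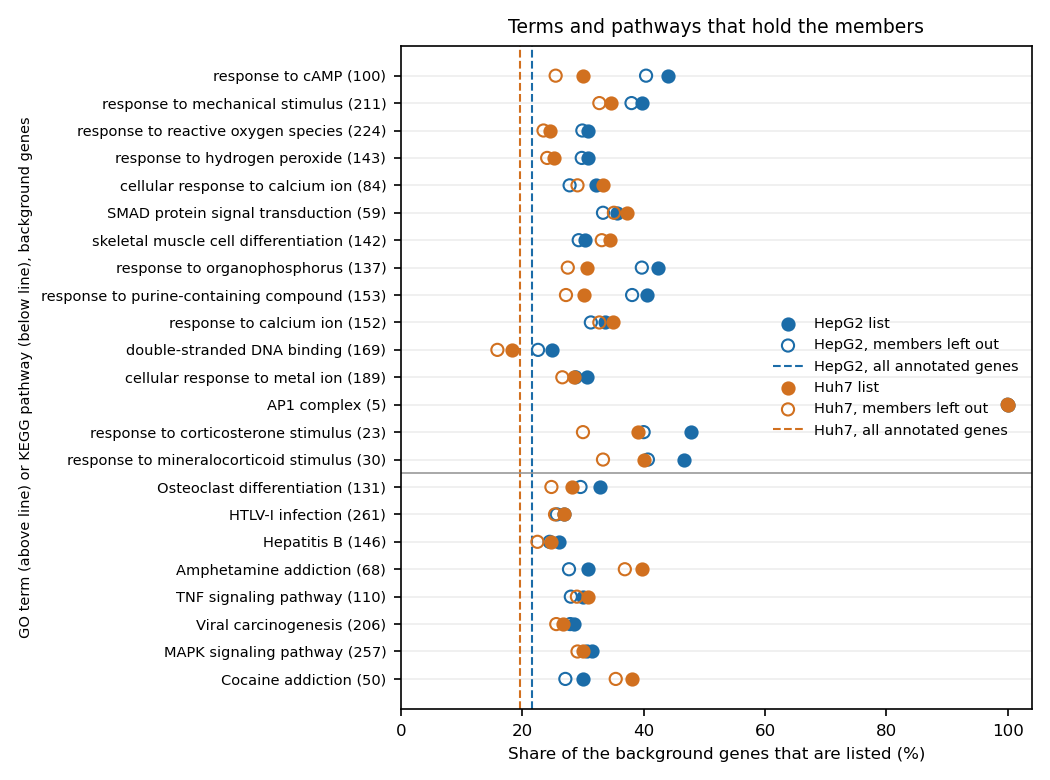
Share of the background genes listed (horizontal axis, %) for the 15 named GO terms and the 8 KEGG pathways with the most members, with the number of background genes in brackets. Filled points are all genes, and open points leave out the members listed in that cell line. Members not listed in a line were kept in, so EGR2 was left out in Huh7 cells only. Dashed lines are the shares of all annotated genes, 21.6% in HepG2 and 19.7% in Huh7 cells. Double-stranded DNA binding in Huh7 cells lies below its line with the listed members (18.3%) and without them (15.9%).

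The members also stood in KEGG pathways. In HepG2 cells JUN stood in 33 pathways, FOS in 24, FOSB in 4, FOSL1 in 3, and JUNB, JUND, EGR1 and EGR3 in 2 each. The counts were the same in Huh7 cells, where EGR2 stood in 3. In each line 39 pathways held at least 1 member, and 23 held at least 2 members in one of the lines. The highest number was in Osteoclast differentiation, with 6 members, where 43 of 131 genes were listed in HepG2 cells (32.8%) against 37 in Huh7 cells (28.2%). Of all annotated genes 21.6% and 19.7% were listed, and picking pathways for their listed members raises their shares. Salmonella infection (18.6%) and T cell receptor signaling (21.2%) lay below the share of all genes in HepG2 cells only. Herpes simplex infection (21.5% and 19.4%) did so in both lines. The others of the 23 lay above it in both lines.

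FOS, JUN and JUND stood in the MAPK signaling pathway, with 81 of 257 genes listed in HepG2 cells (31.5%) against 77 in Huh7 cells (30%). FOS, JUN and JUNB stood in the TNF signaling pathway, with 33 of 110 (30%) and 34 (30.9%). The pathways of EGR2 were HTLV-I infection, Hepatitis B and Viral carcinogenesis. In Hepatitis B, with FOS, JUN and EGR3 in HepG2 cells and EGR2 besides in Huh7 cells, 38 of 146 genes (26%) and 36 (24.7%) were listed. Without the listed members the shares were 24.5% and 22.5%. HTLV-I infection, with FOS, FOSL1, JUN and EGR1 in both lines and EGR2 in Huh7 cells, had 70 of 261 genes listed in each (26.8%). Amphetamine addiction, with FOS, FOSB and JUN, had 21 of 68 genes listed in HepG2 cells (30.9%) against 27 in Huh7 cells (39.7%).

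The other genes of the AP-1 and EGR pathway were taken as 7 lists with 107 distinct genes. HepG2 cells had 51 of these listed (47.7%), beside 21.6% of all annotated genes. Huh7 cells had 45 (42.1%), beside 19.7%. The 2 lines shared 33 of them, and 10.3% of all annotated genes were listed in both. ATF3 and NAB2 stand in 2 lists each. From each list the first genes in alphabetical order that were listed in both lines are named, and those listed in one line only or in neither were named after their calls had been seen.

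The leucine zipper factors taken as partners or relatives of FOS and JUN include ATF, MAF and BATF proteins. They had 11 of 19 genes listed in HepG2 cells (57.9%) against 10 in Huh7 cells (52.6%). The shares of all annotated genes were 21.6% and 19.7%, with 10.3% listed in both lines, 11.3% in HepG2 cells only and 9.43% in Huh7 cells only. Of the 19 genes, 7 were listed in both lines and included ATF3 and ATF4, stress-induced factors, BATF2, and the MAF genes MAFA, MAFF and MAFG. BATF3, CREM, MAF and NRL were listed in HepG2 cells only, and BATF, BACH1 and BACH2 in Huh7 cells only. BACH1 is the repressor of the heme oxygenase gene that heme releases. Neither line listed ATF1, ATF2, ATF7, JDP2 or CREB1, among which ATF1, ATF2 and CREB1 are known to bind the CRE.

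Other immediate early genes had 24 of 35 listed in HepG2 cells (68.6%) against 16 in Huh7 cells (45.7%), beside 21.6% and 19.7% of all annotated genes. In both lines 14 were listed, as were 10.3% of all annotated genes. These 14 included ARC, ATF3, CSRNP1, CTGF and the phosphatase genes DUSP1 and DUSP5, which end MAP kinase signals. A call in HepG2 cells only was found for 10 genes, with MYC, KLF6, ZFP36, BTG2 and MCL1 among them, and in Huh7 cells only for 2, GADD45G and TIPARP. Of all annotated genes, 11.3% were listed in HepG2 cells only and 9.43% in Huh7 cells only. Whether the 2 lines differed in the share of these genes was not tested.

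The factors and kinases that act upstream of the members formed 3 lists. Serum response factor (SRF), which binds the CArG box, and its cofactors had 2 of 7 genes listed in each line (28.6%), beside 21.6% and 19.7% of all genes. None of the 7 was listed in both lines, where 10.3% of all genes were, and a list of this size is too short to read anything from that. MKL2 and MYOCD were listed in HepG2 cells, ELK3 and MKL1 in Huh7 cells, and SRF, ELK1 and ELK4 in neither. The MAP kinases and ribosomal S6 kinases that act on AP-1 and on the promoters of its genes had 2 of 16 listed in each line (12.5%), which were MAPK11 and RPS6KA4 in HepG2 cells and RPS6KA2 and RPS6KA3 in Huh7 cells. These kinases act by phosphorylation, which an mRNA list does not measure. Of EGR4, NAB1, NAB2 and WT1, the EGR relative, corepressors and rival for its sites, NAB1 alone was listed, in Huh7 cells.

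Textbook targets of AP-1 had 11 of 16 genes listed in HepG2 cells and the same 11 in Huh7 cells (68.8%). They included CCND1, a cyclin of the G1 phase, the cytokine genes CXCL8, IL11 and IL6, the heme oxygenase gene HMOX1 and the collagenase gene MMP1. MMP3, MMP9, TIMP1, EZR and CD44 were listed in neither line. Textbook targets of EGR1 had 2 of 12 listed in HepG2 cells (16.7%) against 4 in Huh7 cells (33.3%). The share of all genes was 21.6% and 19.7%, so that these targets lay below it in HepG2 cells and above it in Huh7 cells. A list of 12 genes is too short to read anything from that, and the difference between the lines was not tested. CDKN1A, a cell cycle inhibitor, and FN1, fibronectin, were listed in both lines, and PDGFB and THBS1 in Huh7 cells only. Most of these targets also answer to other factors, and whether AP-1 or EGR1 acted on them was not tested.

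**Figure D4:**
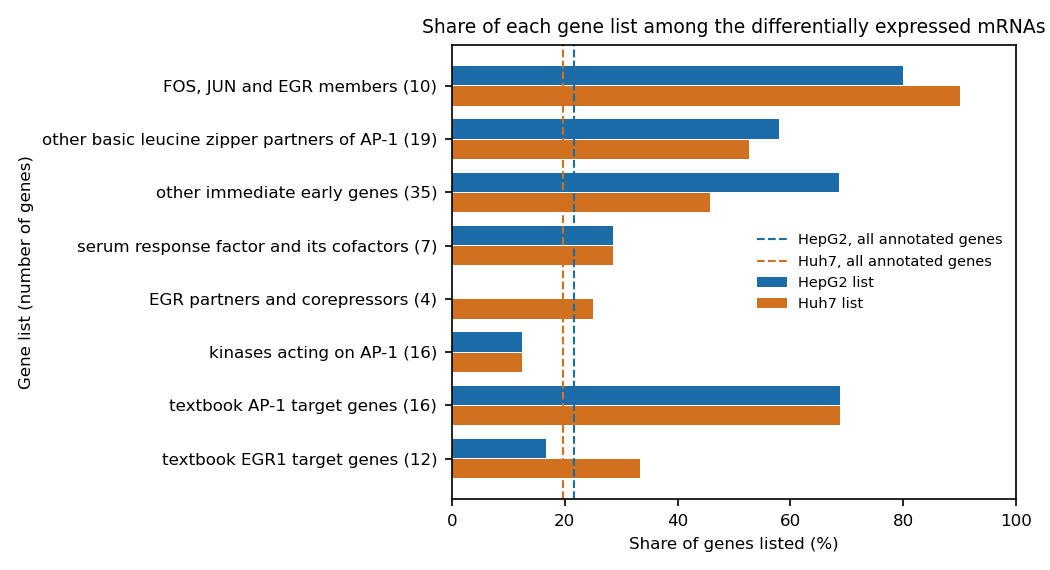
Share of each gene list among the differentially expressed mRNAs (horizontal axis, %), in HepG2 (blue bars) and Huh7 cells (orange bars), with the number of genes in brackets and dashed lines at the share of all annotated genes (21.6% and 19.7%). The members, the other leucine zipper factors, the other immediate early genes and the AP-1 targets lie to the right of the lines. SRF and its cofactors (28.6%) do so too, and the kinases (12.5%) lie to the left in both cell lines. The EGR partners (0%) and EGR1 targets (16.7%) lie to the left in HepG2 cells only, and these lists are too short to read anything from that.

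**Figure D5:**
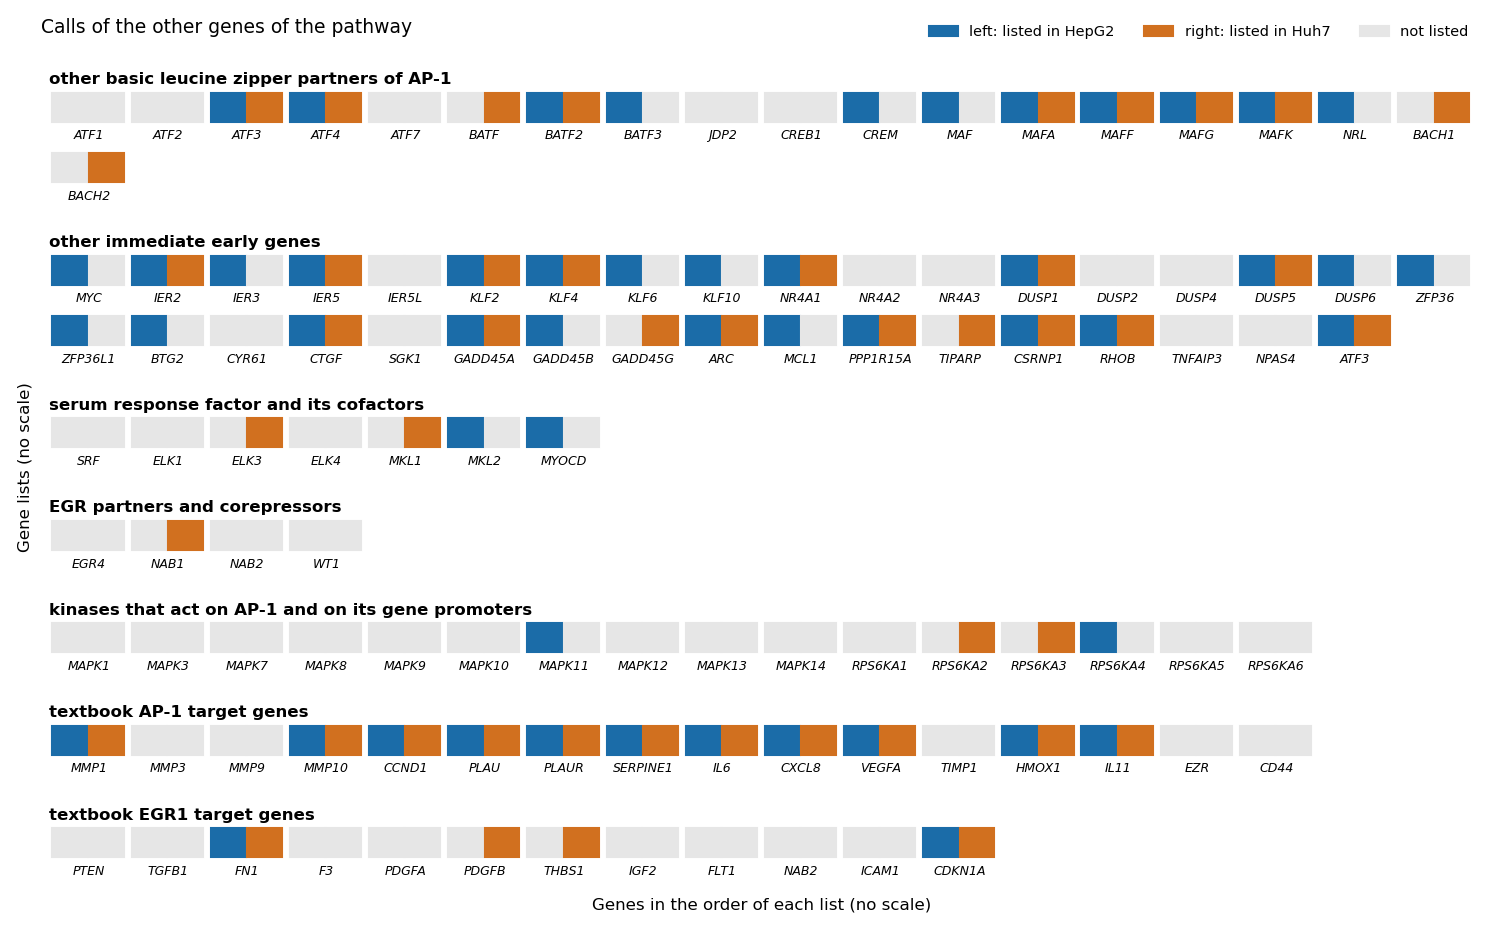
Calls of each gene of the 7 lists, where the left side of a box is blue for a gene listed in HepG2 cells, the right side is orange for one listed in Huh7 cells, and grey is not listed. All 11 listed AP-1 targets are coloured on both sides. A call in both lines was found for 10.3% of all annotated genes.

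Of 5 hepatocyte markers, ALB and AFP were listed in both lines, APOA1 and TTR in Huh7 cells only and SERPINA1 in neither, which makes 40% in HepG2 cells against 80% in Huh7 cells. Of all annotated genes 21.6% and 19.7% were listed. The share of the markers was near that of the members in Huh7 cells (90%) and below it in HepG2 cells (80%). A list of 5 genes is too short to read anything from that. Since the tables hold no levels, the cell type of the lines could not be checked against these markers, and a change in the share of dying cells and a change of mRNA within cells cannot be told apart for the members either.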

How the data were processed

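Total RNA of 4 groups (1 library each, grouped by the sample labels) was depleted of ribosomal RNA and made into strand-specific libraries by the authors. The submitters' processing notes name HISAT2, Bowtie2 2.2.8, StringTie 1.3.1 and Cuffdiff 2.1.1. The methods name Cuffdiff for the calls, whereas the results name edgeR. The genome build and the counting of reads that match several places are not given in the sources used here. The authors called mRNAs at an adjusted p-value under 0.05 and deposited 4 tables (GO and KEGG for each comparison) with numbers of listed and background genes, gene identifiers and p-values of enrichment. These deposited p-values were neither used nor printed. Numbers of genes are not read counts, and the depth of each library is unknown.

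Lists were rebuilt from the identifiers in the GO tables with Python 3.11.15 and pandas 2.3.3. Symbols came from a gene name table, lengths and exons from GENCODE 29, and promoter windows from RefSeq. The counting scripts were tested on simulated data. The members and all gene lists were chosen with earlier results of these data known. The genes named were all members and, from each list, up to 6 genes listed in both lines in alphabetical order. The terms named were fixed ones and the 8 others with at most 200 background genes that hold the most members. Of the fixed terms, transcription factor AP-1 complex was not found under that name, and the term AP1 complex came in by the number of members. Pathways named were some of those that held at least 2 members, and not all of them as planned. From the lists, 1 gene is not reported here and was left out of the counts. Protein identity between members was not computed here. Alternatives were the KEGG table, both tables, biological process terms only, terms with at most 1000 background genes, a protein-coding background, a shorter promoter window and other stretch lengths.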

Additional observations from a re-analysis of the deposited data

How the results depend on the processing

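The counts of listed members, 8 for HepG2 cells, 9 for Huh7 cells and 8 for both, were the same when the lists were rebuilt from the KEGG tables, from both kinds of table, from biological process terms only and from terms with at most 1000 background genes. The numbers of companion genes listed (51 and 45) were the same with both kinds of table and with biological process terms only. With protein-coding genes of GENCODE 29 as the background, the share of all genes listed became 23.9% in HepG2 cells and 21.9% in Huh7 cells, because this background holds 19951 genes in place of 22148. All these tables were made from the same calls, so they are no independent check. No paired analysis was possible because each group has 1 library and no result comes from a test, and no replicate could be left out. Depth, expression levels and direction were not analysed here.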
